A study of Mus musculus with 8 samples.

Results

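The collagen genes of mouse inguinal white adipose tissue are described here. They were chosen by symbol, as every gene named Col, a number, the letter a and a number, with 1 transcript per gene. This gave 43 of the 22869 genes in the deposited table. By the class of protein they encode, 11 are fibrillar, 6 form the basement membrane network of type IV collagen, 6 form the beaded filaments of type VI and 9 are fibril-associated. Of the rest, 2 are multiplexins, 3 are short-chain network collagens, 1 forms anchoring fibrils, 4 are transmembrane and 1 (Col28a1) falls outside these classes.

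Collagens are the main structural proteins of the extracellular matrix, each made of 3 chains wound into a helix. Types I, III and V assemble into the fibrils of connective tissue and are made mostly by fibroblasts and related stromal cells. Type IV forms the sheet on which endothelial cells and adipocytes rest, and type VI forms fine filaments around adipocytes, where it is known to limit their expansion.

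RNA-seq was made from inguinal fat, a subcutaneous depot, of 4 wild-type and 4 Fabp4-Ebf2 replicates. All came from mice of about 6 weeks on a mixed background strain, kept on normal chow at room temperature, and lymph nodes were taken out before the RNA was extracted. Fabp4-Ebf2 mice carry the transcription factor Ebf2 under the promoter of Fabp4, a gene of fat cells. The comparison asks how the tissue changes when Ebf2, a factor that promotes the brown and beige fat cell programme, is raised there. Whether each library came from its own mouse is not stated in the labels, and the p-values below reflect only how far these libraries spread. The tissue was taken whole, so fewer cells of a type and less RNA per cell cannot be told apart.

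The libraries held 16894205 to 24653335 reads assigned to genes. Levels below are in CPM, counts per 1000000 reads after scaling of the libraries by the TMM method, and log2 fold changes are Fabp4-Ebf2 minus wild type with a standard error (SE). Ebf2 averaged 27.9 ± 9.30 CPM in wild-type libraries and 438 ± 148 CPM in Fabp4-Ebf2 libraries (SD, n = 4), with a log2 fold change of 3.98 and an adjusted p of 0.00177 by edgeR's quasi-likelihood test. The adipocyte markers Adipoq, Plin1, Fabp4, Cfd and Lep summed to 26215 to 33144 CPM in the wild-type libraries and to 19800 to 21302 CPM in the Fabp4-Ebf2 libraries, so the labelled tissue carries its markers in every library. Skeletal muscle transcripts were also present and differed between the groups. The 10 muscle markers summed to 1180, 403, 388 and 438 CPM in wild-type libraries 1 to 4 and to 82.2, 356, 83.1 and 25.1 CPM in Fabp4-Ebf2 libraries 1 to 4. Every one of the 10 had an unadjusted p under 0.05 in the lower direction, and 1 of them passed the test after adjustment (Casq1). Because the muscle sums of the groups do not overlap, muscle content and genotype cannot be told apart in these libraries.

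Of the 43 collagen genes, 36 had enough reads to be tested. The other 7 were Col2a1, Col9a1, Col9a2, Col10a1, Col19a1, Col22a1 and Col25a1, with 0 to 14 reads in any library and at most 0.654 CPM. Several of these belong to cartilage, whose marker genes summed to only 3.31 to 5.77 CPM in wild-type libraries and 4.13 to 5.45 CPM in Fabp4-Ebf2 libraries. Where such a gene had 0 reads, as Col9a1 did in 5 of the 8 libraries, up to 3 reads (0.116 to 0.178 CPM, depending on the library) cannot be told from absence.

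Per kilobase of transcript, which can be given for 42 of the genes, the wild-type tissue was dominated by the major fibrillar chains. Col3a1 came first at 808 CPM per kilobase, then Col1a2 at 438 and Col1a1 at 296. Next came the basement membrane chain Col4a1 at 176, the beaded-filament chains Col6a1 at 122 and Col6a2 at 116, and Col4a2 at 102. Col5a3 and Col15a1, at 63.9 and 61.8, led the minor collagens. In Fabp4-Ebf2 Col3a1 at 465 and Col1a2 at 244 CPM per kilobase were again ahead, followed by Col4a1 at 165 and then Col1a1 at 147. The groups of Col1a1 overlapped. Within libraries the ratio of Col4a1 to Col1a1 per kilobase ran from 0.277 to 1.53 in wild type and from 0.640 to 1.63 in Fabp4-Ebf2. Their order thus varied among the libraries of each group.

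Only Col27a1 passed the test among the 36 collagens, and it was higher in Fabp4-Ebf2; none was called lower by edgeR's quasi-likelihood test. Over all 15002 tested genes, 2.8% were called higher and 0.62% lower, so 1 call in 36 is near the background. At an unadjusted p under 0.05, 3 collagens were higher (Col27a1, Col12a1 and Col17a1), against 10.2% of all genes, and 1 was lower (Col5a2), against 7.27%. None was called lower by DESeq2, by limma-voom or by edgeR's exact test either, where the shares of all genes called lower were 2.57%, 0.547% and 1.84%. The authors' deposited table lists 1 collagen as lower at a false discovery rate under 0.05, Col1a1 at 0.0450, and Col27a1 and Col12a1 as higher, at 1.05e-07 and 0.0228. The share of all genes that their comparison calls was not computed, so these counts cannot be set against a background. Col27a1 and Col12a1 were also called higher by DESeq2, limma-voom and the exact test, against 5.65%, 2.48% and 4.85% of all tested genes. Groups that do not overlap were found for 2 collagens, Col27a1 and Col12a1, both higher in Fabp4-Ebf2, and for none in the lower direction. Over all tested genes these shares were 7.35% and 4.07%.

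Among the tested collagens 26 had a negative and 10 a positive log2 fold change, against 51.6% negative over all tested genes. The median was -0.22, against -0.01 for all genes. By class the median was -0.46 for the 10 tested fibrillar genes, -0.30 for the 6 of the beaded filaments, -0.23 for the 5 fibril-associated genes and -0.11 for the 6 basement membrane genes. Without wild-type library 1 the count of negative values was 23 and the median -0.09. In that setting the fibrillar median was -0.26, the beaded-filament median -0.15, the fibril-associated median -0.03 and the basement membrane median -0.07. With any 1 library left out, the fibrillar median was at its lowest without Fabp4-Ebf2 library 4 (-0.67) and the beaded-filament median without Fabp4-Ebf2 library 2 (-0.43). The fibril-associated and basement membrane medians were lowest without wild-type library 2 (-0.42 and -0.24), and the basement membrane median was -0.04 without Fabp4-Ebf2 library 2. With the muscle markers as a covariate, 15 of the 36 values were negative, and the median was 0.04 for all of them and 0.11 for the fibrillar genes. In that fit Ebf2 itself, at a log2 fold change of 3.68, had an adjusted p of 0.114 by edgeR's quasi-likelihood test. Since the muscle sums of the groups do not overlap, that fit cannot separate muscle content from genotype.

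**Figure D1:**
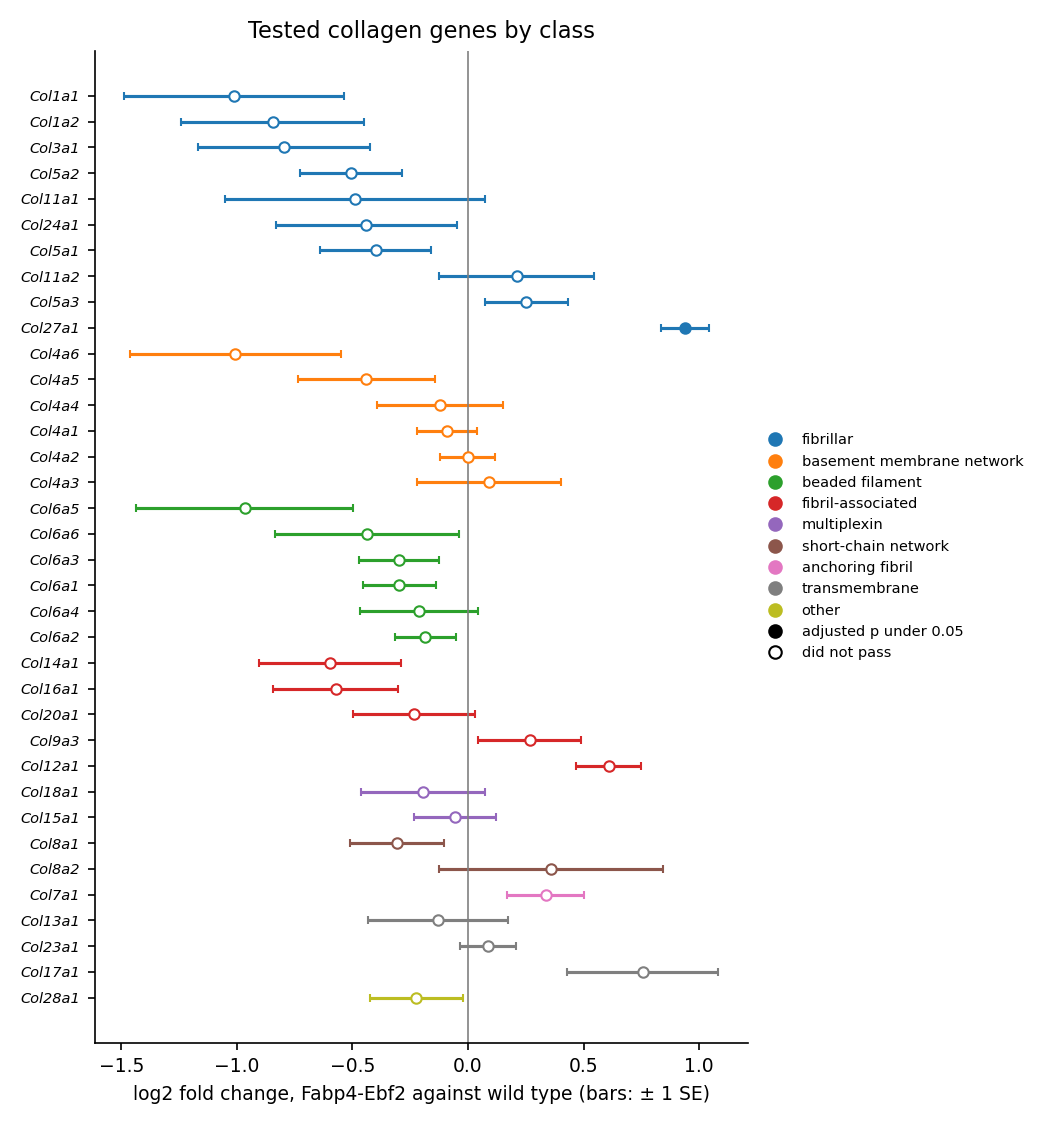
Log2 fold change of the 36 tested collagen genes (horizontal axis, Fabp4-Ebf2 against wild type, bars ± 1 SE), ordered and coloured by class; a filled point passed the test at an adjusted p of 0.05. Col27a1 at 0.94 is the 1 filled point, and all 6 beaded-filament genes lie below 0 without passing.

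Fibrillar collagens come first, and among them Col27a1, which encodes the single chain of type XXVII collagen, a minor fibrillar collagen best known from cartilage. Col27a1 stood at 30.9, 31.2, 25.1 and 28.5 CPM in wild-type libraries 1 to 4 and at 59.5, 47.4, 57.0 and 57.9 CPM in Fabp4-Ebf2 libraries 1 to 4. Every Fabp4-Ebf2 library lay above every wild-type library, and the lowest of them was library 2, the one with the most muscle RNA in its group. Wild-type library 1, which had the most muscle RNA in its own group, stood near the top of that group at 30.9 CPM. The group means were 28.9 ± 2.81 and 55.4 ± 5.48 CPM (SD, n = 4), a 1.92-fold rise. The log2 fold change was 0.94 (SE 0.10) with an adjusted p of 0.00322 by edgeR's quasi-likelihood test. With each library left out in turn it ran from 0.87 to 1.00, with adjusted p-values from 0.00148 to 0.0213. With the muscle markers as a covariate it was 0.80 with an adjusted p of 0.279; in that fit 1 of the 15002 genes passed, against 513 without the covariate.

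No tested cartilage marker and none of the 6 nearest tested neighbours of Col27a1 passed the test, but few reads limit what the cartilage markers could show. Of 6 cartilage markers 2 had enough reads to be tested, Comp and Sox9, and neither passed. Sox9, a transcription factor of cartilage and other tissues, averaged 0.811 ± 0.158 and 1.27 ± 0.341 CPM (SD, n = 4) without overlap. Its log2 fold change was 0.63 (SE 0.27), with an unadjusted p of 0.0404 and an adjusted p of 0.260 by edgeR. Matn3 and Acan each had at most 1 read in any library of either group. The 6 nearest tested neighbours on chromosome 4 had log2 fold changes from -0.64 (Zfp618) to 0.41 (Orm2), and none passed the test, the lowest adjusted p among them being 0.375. The gene Mir455 lies within Col27a1 outside its annotated exons and had 0 reads in all 8 libraries, which were made from polyadenylated RNA and do not measure mature miRNAs.

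The promoter of Col27a1 is shown because this gene was the only collagen that passed the test, beside those of Col1a2 and Col3a1, the most abundant collagens, whose fold changes were negative without passing it. Each is the RefSeq window from 250 bases before to 50 bases after a transcript start in the GRCm38.p6 build, read 5′ to 3′ on the plus strand, at chr4:63215162-63215461, chr6:4505368-4505667 and chr1:45311288-45311587. In the gene annotation Col27a1 begins at chr4:63214009, before its window, so the window shown is not at the first annotated start of the gene. Capitals mark matches on either strand to the GC box, which reads GGGCGG, to the box that reads CCAAT, and to the TATA box, searched as TATAAA.
Col27a1: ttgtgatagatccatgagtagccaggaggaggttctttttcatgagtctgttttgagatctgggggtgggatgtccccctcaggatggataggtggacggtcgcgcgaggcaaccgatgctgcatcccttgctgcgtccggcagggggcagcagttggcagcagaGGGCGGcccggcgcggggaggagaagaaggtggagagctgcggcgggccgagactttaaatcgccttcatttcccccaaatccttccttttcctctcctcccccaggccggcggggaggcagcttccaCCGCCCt
Col1a2: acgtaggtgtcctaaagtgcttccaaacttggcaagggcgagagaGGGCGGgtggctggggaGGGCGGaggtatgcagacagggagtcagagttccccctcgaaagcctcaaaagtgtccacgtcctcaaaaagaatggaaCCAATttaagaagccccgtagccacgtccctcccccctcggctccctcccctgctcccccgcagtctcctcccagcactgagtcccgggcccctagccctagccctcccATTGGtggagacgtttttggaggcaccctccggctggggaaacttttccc
Col3a1: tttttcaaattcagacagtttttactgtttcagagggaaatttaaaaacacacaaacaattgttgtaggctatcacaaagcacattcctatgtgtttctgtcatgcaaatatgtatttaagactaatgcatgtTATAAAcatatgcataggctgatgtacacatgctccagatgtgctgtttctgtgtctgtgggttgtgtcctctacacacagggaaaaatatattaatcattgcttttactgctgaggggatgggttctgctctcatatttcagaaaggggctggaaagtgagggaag
The Col27a1 window held 2 GC boxes, the Col1a2 window 2 GC boxes and 2 CCAAT boxes, and the Col3a1 window 1 TATA box. Windows were at hand for 35 of the 43 collagens. A collagen was counted if any of its windows held the motif, while the background share is over single windows. A gene with several windows has more chances to match, so the shares below are not like for like. A GC box was in 62.9% of the 35 collagens and in 35.7% of all 32851 windows, a CCAAT box in 37.1% and 37.4%, and a TATA box in 14.3% and 13.6%. The palindromic binding motif of Ebf factors, searched with any base at its 2 middle positions, was in 0 of the 35 and in 0.904% of all windows. A GA-rich motif, GGGAGG, which can overlap a GC box, was in 80% and 42.4%.

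Col1a1 and Col1a2 encode the chains of type I collagen and Col3a1 that of type III, the main fibrils of connective tissue. Col3a1 stood at 8268, 3927, 2960.2 and 2817 CPM in the wild-type libraries and at 1956, 3639, 2065 and 2694 CPM in the Fabp4-Ebf2 libraries. Col1a2 stood at 4463, 2031, 1283 and 1590.2 CPM and at 1019, 1928, 972 and 1297 CPM. Col1a1, added here for its role and after its values were seen, stood at 3681, 1452, 797 and 1082 CPM and at 659, 1394, 587 and 836 CPM. For each of these genes wild-type library 1 was far above the rest, Fabp4-Ebf2 library 2 was the highest of its group, and the groups overlapped. These 2 libraries also had the most muscle RNA in their groups; the part of muscle or of tissue composition in these values was not tested.

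The log2 fold changes were -0.80 (SE 0.37) for Col3a1, -0.84 (SE 0.40) for Col1a2 and -1.01 (SE 0.47) for Col1a1, with adjusted p-values of 0.304, 0.306 and 0.306 by edgeR's quasi-likelihood test, so none passed. Without wild-type library 1 the values were -0.32, -0.33 and -0.35. With the muscle markers as a covariate they were 0.03, 0.08 and 0.14. In the authors' deposited table Col1a1 has a log2 fold change of -0.92 at a false discovery rate of 0.0450. The sum of the 3 genes was 5040 to 16412 CPM in wild-type libraries and 3624 to 6962 CPM in Fabp4-Ebf2 libraries. Markers of fibroblasts and their progenitors summed to 2050, 1688, 1660 and 1693 CPM and to 1621, 1332, 1475 and 1676 CPM. Fabp4-Ebf2 library 2 had the lowest sum of its group, but the 6 markers did not move together. Pdgfra (128 CPM), Dpp4 (95.6 CPM) and Cd34 (214 CPM) were highest of the group there, while Dpt was at 341 CPM against 609 to 711 CPM and Ly6a at 392 CPM against 427 to 532 CPM.

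**Figure D2:**
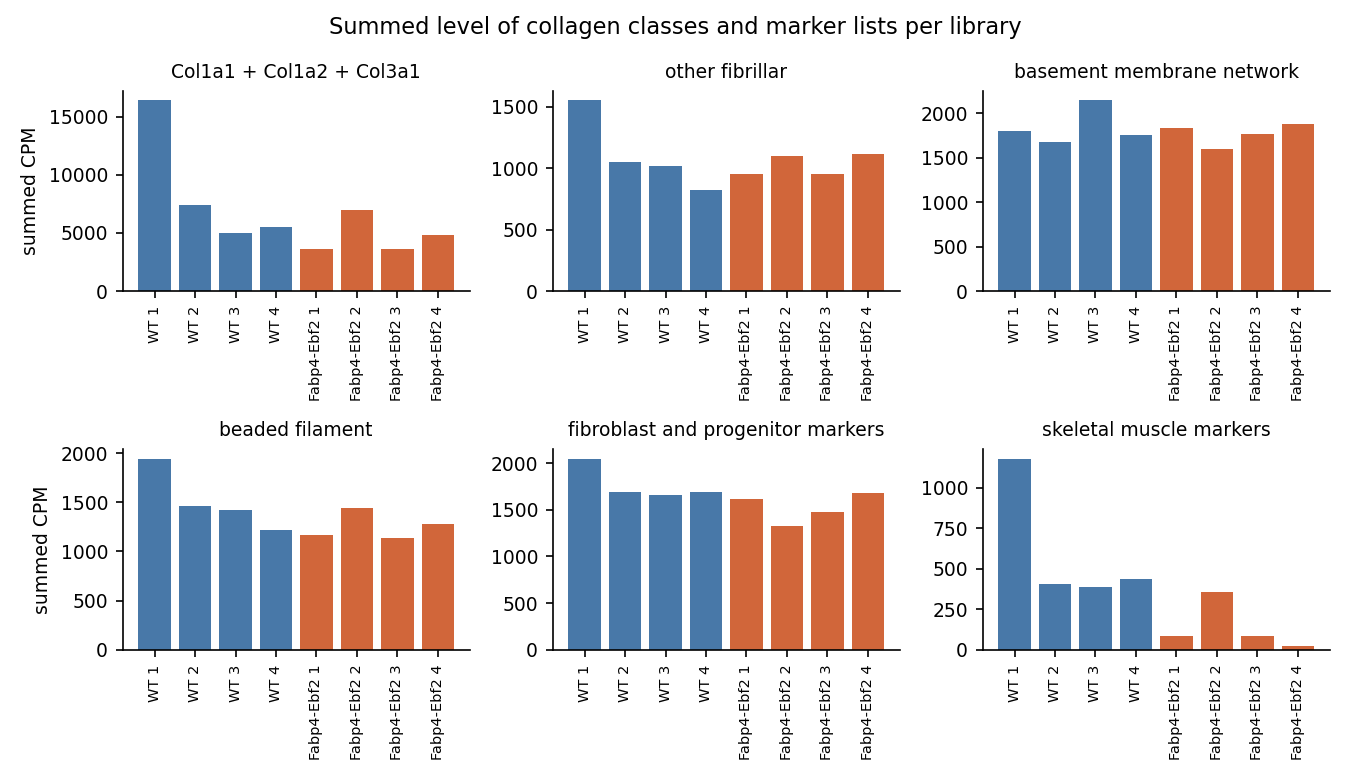
Summed CPM (vertical axes, each starting at 0) of collagen classes and of 2 marker lists in each library, wild type (WT) in blue and Fabp4-Ebf2 in orange. Col1a1, Col1a2 and Col3a1 together reach 16412 CPM in wild-type library 1 and at most 7410 CPM elsewhere; muscle markers are highest in the same library.

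Type V collagen chains, which join type I fibrils and limit their thickness, had fold changes of both signs. Col5a2 stood at 523, 307, 289 and 275 CPM in wild type and at 206, 305, 219 and 252 CPM in Fabp4-Ebf2. Wild-type library 1 was high, and Fabp4-Ebf2 library 2 reached into the wild-type range. The log2 fold change of Col5a2 was -0.51 (SE 0.22) with an unadjusted p of 0.0452 and an adjusted p of 0.274 by edgeR, and without wild-type library 1 it was -0.24. Of the partners, given after their values were seen, Col5a1 had means of 331 ± 134 and 251 ± 34.7 CPM (SD, n = 4; log2 fold change -0.40, SE 0.24). Col5a3 had means of 391 ± 94.2 and 466 ± 48.8 CPM (SD, n = 4; log2 fold change 0.25, SE 0.18). The remaining tested fibrillar genes were low. Col11a1 and Col24a1, at means under 2 CPM, had -0.49 (SE 0.56) and -0.44 (SE 0.39), and Col11a2, at 10.9 ± 5.50 and 12.6 ± 3.93 CPM (SD, n = 4), had 0.21 (SE 0.34).

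**Figure D3:**
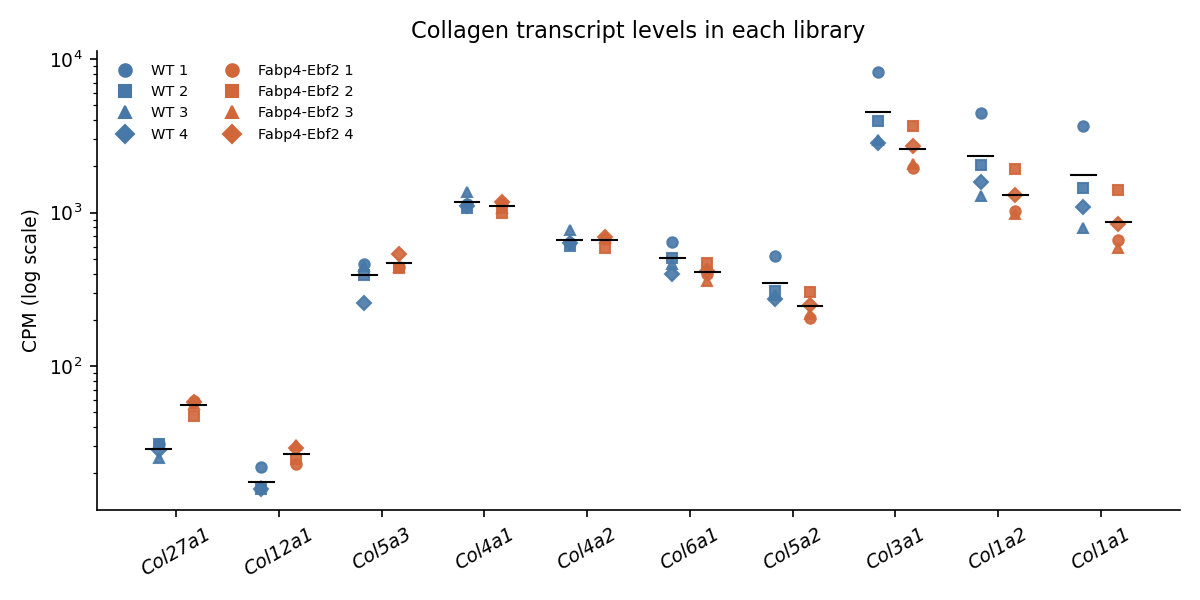
Level of 10 collagen genes in each library (vertical axis, CPM on a log scale; WT is wild type; the line is the group mean; genes chosen for drawing after their values were seen). Col27a1 lies between 25.1 and 31.2 CPM in wild type and between 47.4 and 59.5 CPM in Fabp4-Ebf2, while the groups of Col1a1, Col1a2 and Col3a1 overlap.

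The abundant basement membrane chains had close means in the 2 groups. Col4a1 and Col4a2 encode the chains of the common type IV network of vessels and adipocytes. Col4a1 stood at 1138, 1063, 1361 and 1102 CPM in wild type and at 1149, 996, 1067 and 1167 CPM in Fabp4-Ebf2. Col4a2 stood at 629, 601, 771 and 633 CPM and at 668, 588, 678 and 698 CPM. Wild-type library 3, not library 1, was the highest for both, and the groups overlapped. The log2 fold changes were -0.09 (SE 0.13) and -0.00 (SE 0.12), with adjusted p-values of 0.738 and 0.997 by edgeR.

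Col4a1 and Col4a2 lie head to head on chromosome 8 and overlap by 85 bases in RefSeq's GRCm38 annotation. Their promoter windows, shown because the start region is shared, have 78 bases in common, chr8:11312777-11312854, given in capitals. The window of Col4a1 is chr8:11312777-11313076 on the minus strand and that of Col4a2 is chr8:11312555-11312854 on the plus strand, in GRCm38.p6.
Col4a1: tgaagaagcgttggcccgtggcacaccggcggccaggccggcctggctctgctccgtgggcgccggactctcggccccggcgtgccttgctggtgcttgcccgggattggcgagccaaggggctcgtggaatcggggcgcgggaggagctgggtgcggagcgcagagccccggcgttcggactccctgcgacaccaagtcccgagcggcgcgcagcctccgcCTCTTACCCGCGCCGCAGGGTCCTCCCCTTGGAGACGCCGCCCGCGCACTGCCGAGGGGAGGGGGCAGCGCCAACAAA
Col4a2: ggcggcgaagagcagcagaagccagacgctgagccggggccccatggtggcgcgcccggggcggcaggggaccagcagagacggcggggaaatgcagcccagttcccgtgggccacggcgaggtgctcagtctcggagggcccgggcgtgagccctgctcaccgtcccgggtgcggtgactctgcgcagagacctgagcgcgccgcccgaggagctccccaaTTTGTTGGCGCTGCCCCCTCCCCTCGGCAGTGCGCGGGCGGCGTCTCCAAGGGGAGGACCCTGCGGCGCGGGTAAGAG
The Col4a1 window held 1 GC box and 1 CCAAT box, and the Col4a2 window 3 GC boxes and 1 CCAAT box. Reads from the overlapping bases may be counted for either gene, since the strand setting of the counting is not given.

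The other type IV genes also form neighbouring pairs and were far lower. Col4a3 and Col4a4, whose genes overlap by 114 bases on chromosome 1, encode chains best known from the kidney filter. They had log2 fold changes of 0.09 (SE 0.31) and -0.12 (SE 0.27), at means of 3.18 and 4.29 CPM in wild type. Col4a5 and Col4a6, 1274 bases apart on chromosome X, had log2 fold changes of -0.44 (SE 0.29) and -1.01 (SE 0.46). Without wild-type library 1 these were -0.04 and -0.75. Col4a6 averaged 0.808 ± 0.333 CPM in wild-type libraries and 0.392 ± 0.247 CPM in Fabp4-Ebf2 libraries (SD, n = 4), and its adjusted p was 0.293 by edgeR. None of the 6 type IV genes passed the test.

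The 6 beaded-filament genes of type VI collagen had negative log2 fold changes, and none passed the test. Without wild-type library 1 the count of negative values was 5, and with the muscle covariate it was 2. Col6a1 stood at 643, 506, 459.7 and 399 CPM in wild type and at 396, 467, 357 and 415 CPM in Fabp4-Ebf2. Col6a3, whose product gives rise to endotrophin, stood at 667, 459.6, 498 and 408 CPM and at 349, 495, 379 and 432 CPM. For both genes wild-type library 1 was the highest and Fabp4-Ebf2 library 2 was the highest of its group. The log2 fold changes were -0.30 (SE 0.16) and -0.30 (SE 0.17), with adjusted p-values of 0.364 and 0.407 by edgeR. Col6a2, the third chain of the common type VI molecule, averaged 456 ± 77.2 and 402 ± 25.4 CPM (SD, n = 4) and had -0.18 (SE 0.13). Col6a4, Col6a5 and Col6a6 encode alternative chains and had -0.21, -0.97 and -0.44, at means of 14.4, 22.4 and 9.0 CPM in wild type. Col6a5 had an adjusted p of 0.325, and without wild-type library 1 its log2 fold change was -0.38.

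Fibril-associated collagens sit on the surface of fibrils. Col12a1, the chain of type XII collagen, stood at 22.1, 15.9, 16.6 and 15.9 CPM in wild type and at 22.9, 24.8, 30.6 and 29.2 CPM in Fabp4-Ebf2. The groups did not overlap, although wild-type library 1 came within 1 CPM of the lowest Fabp4-Ebf2 library. The log2 fold change was 0.61 (SE 0.14) with an adjusted p of 0.0508 by edgeR, just above the threshold. It was 0.73 with an adjusted p of 0.0347 without wild-type library 1, and 0.64 with 0.0496 without Fabp4-Ebf2 library 2. With each of the other 6 libraries left out the adjusted p was 0.0652 to 0.148. The adjusted p was 0.00365 by DESeq2, 0.0479 by limma-voom and 0.00691 by edgeR's exact test. With the muscle covariate it was 0.577.

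Col14a1 and Col16a1, also fibril-associated, lay on the other side. Col14a1 stood at 134, 76.8, 47.1 and 62.0 CPM in wild type and at 43.0, 72.8, 41.5 and 54.1 CPM in Fabp4-Ebf2. Col16a1 stood at 42.3, 35.1, 20.1 and 23.8 CPM and at 15.5, 29.4, 16.5 and 20.1 CPM. For both genes the groups overlapped, with wild-type library 1 and Fabp4-Ebf2 library 2 again the highest of their groups. The log2 fold changes were -0.60 (SE 0.31) and -0.57 (SE 0.27), with adjusted p-values of 0.353 and 0.306, and -0.23 and -0.37 without wild-type library 1. Col9a3 and Col20a1 had 0.27 (SE 0.22) and -0.23 (SE 0.26).

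Multiplexins, proteoglycan collagens of basement membrane zones, were abundant, and their group means lay within 1 wild-type SD of each other. Col15a1 averaged 319 ± 68.7 CPM in wild-type libraries and 307 ± 51.2 CPM in Fabp4-Ebf2 libraries (SD, n = 4), with library values of 399, 279, 352 and 248 CPM and of 353, 233, 322 and 319 CPM. Col18a1, the source of endostatin, averaged 158 ± 72.5 and 138 ± 14.4 CPM (SD, n = 4), with values of 259, 164, 112 and 99.6 CPM in wild type and of 143, 141, 118 and 152 CPM in Fabp4-Ebf2. Both overlapped between the groups. Their log2 fold changes were -0.06 (SE 0.18) and -0.19 (SE 0.27). Without wild-type library 1 they were 0.07 and 0.15.

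The remaining classes were low, and none of their genes passed the test. Col17a1, a transmembrane collagen of epidermal attachment, stood at 0.840, 1.12, 0.760 and 0.773 CPM in wild type and at 2.46, 1.17, 0.924 and 1.39 CPM in Fabp4-Ebf2. Fabp4-Ebf2 library 1 was the highest. The 6 epidermal markers summed to 28.0 to 33.5 CPM in wild type and to 21.1 to 23.6 CPM in Fabp4-Ebf2, 23.3 CPM of it in library 1, and most of each sum was Sbsn, which was called lower. In library 1 the keratins Krt5 and Krt14 had 34 and 12 reads, against 0 to 9 and 0 to 11 elsewhere, while Krt10 was at 2.83 CPM, the lowest of its group, and Krt1 had 0 reads. The log2 fold change of Col17a1 was 0.76 (SE 0.33), with an unadjusted p of 0.0447 and an adjusted p of 0.272 by edgeR, and without that library it was 0.41. The part of epidermal RNA in it was not tested.

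Col7a1, the anchoring fibril collagen, stood at 4.46, 4.03, 3.13 and 4.88 CPM in wild type and at 4.72, 5.91, 4.97 and 5.15 CPM in Fabp4-Ebf2, with a log2 fold change of 0.34 (SE 0.17). The transmembrane gene Col23a1 stood at 10.3, 10.9, 10.9 and 12.4 CPM and at 13.8, 10.7, 10.6 and 12 CPM, with 0.09 (SE 0.12). Col13a1, also transmembrane, stood at 1.73, 1.43, 2.37 and 2.62 CPM and at 2.27, 1.26, 2.60 and 1.35 CPM, with -0.13 (SE 0.30). For each of these genes the groups overlapped, and Fabp4-Ebf2 library 2 was the highest of its group for Col7a1 and the lowest for Col13a1.

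Type VIII collagen, a short-chain network collagen of vessel walls and the cornea, has the chains Col8a1 and Col8a2. Col8a1 stood at 4.52, 4.26, 4.51 and 5.35 CPM in wild type and at 2.55, 4.91, 4.10 and 3.48 CPM in Fabp4-Ebf2, with a log2 fold change of -0.31 (SE 0.20). Col8a2 stood at 0.840, 0.659, 0.0894 and 0.416 CPM and at 0.661, 0.755, 0.578 and 0.572 CPM, with 0.36 (SE 0.48). Both overlapped between the groups, and wild-type library 3 was low for Col8a2. Col28a1 stood at 8.51, 4.80, 6.03 and 8.92 CPM and at 6.66, 5.62, 5.95 and 5.89 CPM, with -0.22 (SE 0.20), and all 4 Fabp4-Ebf2 values lay inside the wild-type range.

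Wild-type library 1 was the highest of its group for 21 of the 36 tested collagens, against 23.72% of all tested genes, and Fabp4-Ebf2 library 2 for 18, against 28.72%. The total of all 43 genes was 22619, 12216, 10214 and 9794 CPM in wild type and 8207, 11654, 8050.4 and 9720.5 CPM in Fabp4-Ebf2. The total of the 6 basement membrane genes was 1803, 1679, 2150.4 and 1762 CPM and 1835, 1604, 1766 and 1884 CPM. Thus the basement membrane total varied by less than the total of all collagens, which ranged widely among wild-type libraries, and both overlapped between the groups.

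**Figure D4:**
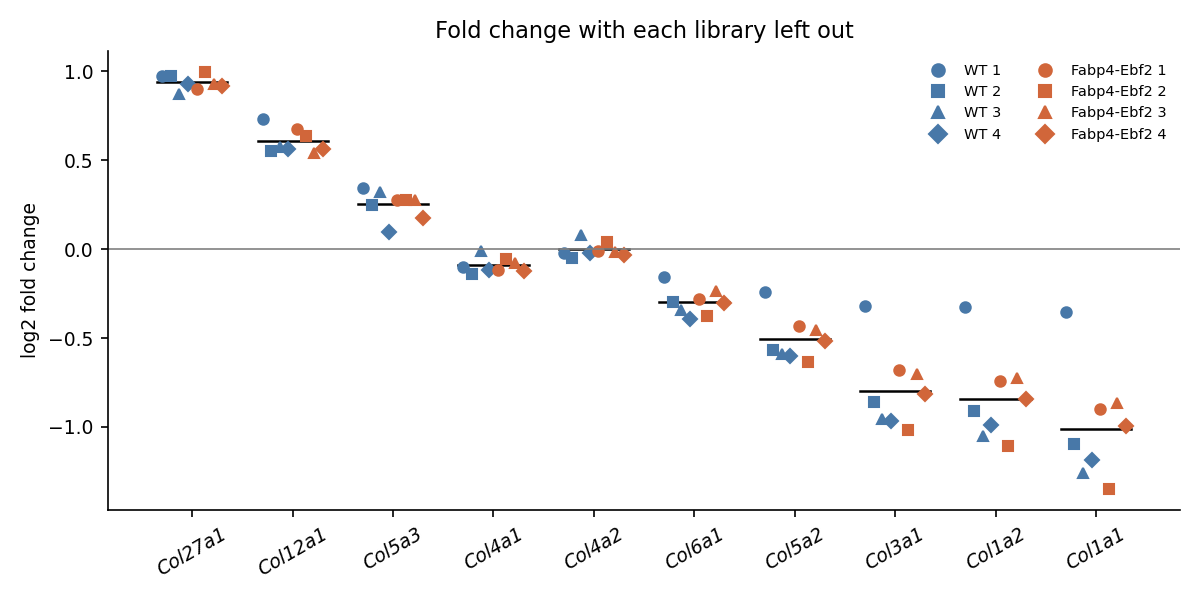
Log2 fold change of 10 collagen genes (vertical axis) with each library left out; a marker shows the value without that library and the line the value with all 8, and WT is wild type. For Col1a1 the value moves from -1.01 to -0.35 without wild-type library 1, while Col27a1 stays between 0.87 and 1.00.

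Ratios between chains within a library, most of them partners, do not depend on its depth. Of 11 ratios per kilobase, chosen after values were seen and given with no test, 9 overlapped between the groups. Col4a1 to Col4a2 was 1.73 ± 0.0275 in wild type and 1.62 ± 0.0615 in Fabp4-Ebf2 (SD, n = 4), and its groups did not overlap: 1.70 to 1.76 against 1.53 to 1.68. Col1a1 to Col1a2 was 0.641 ± 0.0770 and 0.590 ± 0.0450, with groups that overlapped, although each of the genes varied several-fold among libraries. Col6a1 to Col6a2 was 1.05 ± 0.0424 and 0.977 ± 0.0491. The ratio of Col27a1 to Col1a1, which are not partner chains, was 0.00653 to 0.0245 in wild type and 0.0265 to 0.0756 in Fabp4-Ebf2, without overlap. It restates the higher Col27a1 and the lower mean of Col1a1 given above and adds no separate result.

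**Figure D5:**
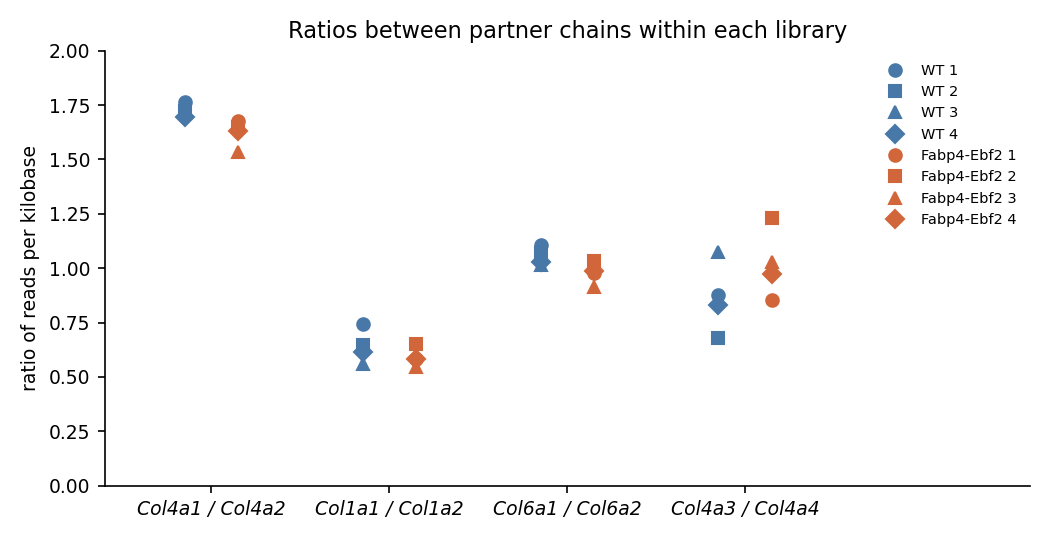
Ratio of reads per kilobase between 4 pairs of collagen chains in each library (vertical axis from 0; WT is wild type). Col4a1 to Col4a2 lies at 1.70 to 1.76 in the wild-type libraries and at 1.53 to 1.68 in the Fabp4-Ebf2 libraries, and the other 3 ratios overlap.

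Genes that fold, process, cross-link, bind and degrade collagen were counted from 6 lists of 100 genes in all, of which 94 were tested. Of these, 1 was called higher (Mmp13) and 0 lower by edgeR's quasi-likelihood test, against 2.8% and 0.62% of all tested genes. At an unadjusted p under 0.05, 21 were lower and 4 higher, against 7.27% and 10.2% of all tested genes. DESeq2, limma-voom and edgeR's exact test called 6, 1 and 5 lower, against 2.57%, 0.547% and 1.84%. The median log2 fold change was -0.23, against -0.01 over all genes. In the list of degrading proteases and their inhibitors, 11 of 13 tested genes had a negative log2 fold change, against 51.6% of all tested genes. At an unadjusted p under 0.05, 8 of the 13 were lower and 1 was higher, so Mmp13 went against most of its list. Mmp13, a collagenase, averaged 0.488 ± 0.160 CPM in wild-type libraries and 1.52 ± 0.634 CPM in Fabp4-Ebf2 libraries (SD, n = 4). It stood at 0.683, 0.542, 0.313 and 0.416 CPM and at 0.850, 1.22, 2.31 and 1.72 CPM, without overlap. Its log2 fold change was 1.62 (SE 0.37) with an adjusted p of 0.0487. Leaving out any library other than Fabp4-Ebf2 library 2 ended this call, with adjusted p-values from 0.0510 to 0.133. Ctsk, a protease that cuts fibrillar collagen, averaged 64.3 ± 26.2 and 29.9 ± 5.40 CPM (SD, n = 4), with a log2 fold change of -1.10 (SE 0.26) and an adjusted p of 0.0521.

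Each of the other lists had no gene past the test, and the pair with the smallest p-values in each is given. Among intracellular enzymes and chaperones, P4ha2 and P4hb, subunits of the prolyl hydroxylase that collagen folding needs, had log2 fold changes of -0.44 (SE 0.14) and -0.26 (SE 0.11), with adjusted p-values of 0.126 and 0.244. Among the processing and cross-linking genes, the lysyl oxidases Loxl1 and Lox had -0.82 (SE 0.21) and -0.66 (SE 0.18), with 0.0655 and 0.0829. Among the receptors, Antxr1 and Itga10 had -0.50 (SE 0.26) and 0.24 (SE 0.13), with 0.353 and 0.375. Among the proteoglycans and glycoproteins of fibrils, Omd and Podn had -0.49 (SE 0.15) and -0.56 (SE 0.21), with 0.115 and 0.207. Among the basement membrane partners, Agrn, a heparan sulfate proteoglycan, had 0.58 (SE 0.14) and Smoc1 had -0.56 (SE 0.20), with 0.0657 and 0.178. In the authors' deposited table the false discovery rate is 2.92e-05 for Ctsk, 0.000643 for Loxl1 and 0.00196 for Mmp13. It is 0.00577 for Agrn, 0.00739 for Lox and 0.0463 for Smoc1, and above 0.05 for the other genes named from these lists. The named genes were picked by their p-values in the same counts, so these values are no separate support. List members not named also pass there, such as Mmp9 at 8.84e-06 and Mmp2 at 0.0112, both lower, and Thbs1 at 0.0165, higher. The share of all genes that pass there was not computed.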

How the data were processed

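RNA-seq of polyadenylated RNA from inguinal fat was analysed from raw read counts per transcript, as deposited by the authors (28644 transcripts of 22869 genes). The submitters' processing notes name the mm9 build and edgeR. Neither the aligner nor the counting tool and its strand setting is given in the sources used here. The authors' deposited table also holds log2 values per library, which were not used, and the log2 fold changes and false discovery rates (adjusted p-values) of its own comparison, which are quoted where named.

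For each gene the transcript marked best by the authors was kept, or the one with most reads. Counts of the 8 libraries (16894205 to 24653335 reads) were fitted without covariates in edgeR 4.0.16 (R 4.3.3) with TMM scaling, the filterByExpr filter and the quasi-likelihood test. P-values were adjusted by the Benjamini-Hochberg method over all 15002 tested genes at 0.05. The SE is the log2 fold change over the square root of the F statistic. The fit was tested on simulated counts with known changes. DESeq2 1.42.0, limma 3.58.1 and 21 alternative settings in all were run. Transcript lengths (GENCODE M21), gene positions and promoter windows (RefSeq) are of GRCm38 and were matched by accession or symbol. No coordinate was moved between builds.

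The collagen genes, their classes and the other gene lists were chosen with earlier results of these data known. Library values are given for collagens past the test, with groups that do not overlap or with an unadjusted p under 0.05, and for the 2 most abundant of each class (20 genes). Of each other list, the genes past the test and the 2 with the smallest p are named. Other collagens were added after their values were seen.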

Additional observations from a re-analysis of the deposited data

Results flagged for a closer look

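In 40 groups checked (20 collagen genes in each genotype), 2 held a library far from the other 3 of its group, by a gap larger than Dixon's 95% critical share of the group's range; chance flags about 1 in 20 groups. Both were wild-type library 1. Col12a1 stood at 22.1 CPM there against 15.9 to 16.6 CPM in libraries 2 to 4, and Col5a2 stood at 523 CPM there against 275 to 307 CPM in them. The same library had the highest sum of muscle markers, 1180 CPM, and of fibroblast and progenitor markers, 2050.2 CPM. Their part in these values was not tested.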

How the results depend on the processing

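No collagen was called lower in any of the 21 alternatives. The count called higher was 1, and it was 2 (Col27a1 and Col12a1) with no filter on low counts, with DESeq2, limma-voom and edgeR's exact test, and without wild-type library 1 and Fabp4-Ebf2 library 2 together; it was 1 to 2 with 1 library left out (2 without wild-type library 1 or without Fabp4-Ebf2 library 2) and 0 with the muscle covariate, a fit in which 1 gene of all passed. Of the other collagen lists, the count called lower was 0, but 1 with upper-quartile scaling, library totals or limma-voom, 2 with no filter, 6 with DESeq2, 5 with the exact test, 0 to 5 with 1 library left out (2 without wild-type library 2, 5 without Fabp4-Ebf2 library 2) and 5 with both left out. The count called higher was 1, but 0 with RLE or upper-quartile scaling, a mean of at least 1 CPM, limma-voom, the muscle covariate or both libraries left out, 2 with DESeq2 or the exact test, and 0 to 1 with 1 library left out. Over all tested genes the count called lower was 93 in the main fit, 385 with DESeq2 and 276 with the exact test. It was 124 with upper-quartile scaling, 126 with library totals, 82 with limma-voom and 91 of 19282 with no filter. It was 181 without wild-type library 2, 256 without Fabp4-Ebf2 library 2 and 164 without wild-type library 1 and Fabp4-Ebf2 library 2 together. Of all genes, 420 were called higher in the main fit, 248 without wild-type library 1, 662 without Fabp4-Ebf2 library 2 and 513 without both. The count called higher was 404 with RLE scaling, 382 with upper-quartile scaling and 401 with a mean of at least 1 CPM. It was 372 with limma-voom, 848 with DESeq2 and 727 with the exact test. The cause was not tested. As a replicate block, the replicate number left 1 collagen higher and gave 3 list genes lower, against 475 higher and 123 lower over all genes. Same-numbered libraries had correlated deviations of -0.133, 0.331, 0.142 and 0.0574, against -0.332 to 0.178 for libraries of different numbers. These values cannot decide whether the numbers pair the samples, and the labels do not say.

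Signs turned only for genes that did not pass. With the muscle covariate log2 fold changes were 0.0913 for Col14a1, 0.185 for Col18a1, 0.0835 for Col1a2, -0.0816 for Col23a1, 0.0258 for Col3a1, 0.0030 for Col5a2, 0.0479 for Col6a3, 0.14 for Col1a1, 0.13 for Col5a1, 0.0385 for Col6a2, 0.45 for Col6a5, 0.15 for Col4a5 and 0.21 for Antxr1. Col4a2 was 0.0030 with no filter, 0.0051 with limma-voom, 0.0027 with the replicate block and 0.0210 with both libraries left out, where Col15a1 was 0.17 and Col18a1 0.13. With 1 library left out, Col13a1 ran from -0.32 to 0.0112, Col15a1 from -0.162 to 0.0668, Col18a1 from -0.363 to 0.146, Col4a2 from -0.0483 to 0.0791, Col8a2 from -0.00289 to 0.70, Col4a3 from -0.161 to 0.305 and Col4a4 from -0.315 to 0.135. Scaling moved the median of all genes by at most 0.06. Genes under about 1 CPM rest on few reads, which limits what could be detected.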
